A study of Rattus norvegicus with 54 samples.

Results

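Transcripts of 9 cardiac potassium and pacemaker channel genes were followed in left ventricular tissue of infarcted rats. The genes, chosen with earlier results of these data known, were matched by symbol. All 9 were found among the 40319 genes that each table lists. They are Kcnd2, Kcnd3 and Kcnip2 of the transient outward current, Kcnj2 and Kcnj11 of the inward rectifiers, Kcnh2, Kcnq1 and Kcna5 of the delayed rectifiers, and the pacemaker channel gene Hcn4. Female athymic rats of the strain F344/NJcl-rnu/rnu, aged 8 weeks, had sham surgery or permanent ligation of the left anterior descending coronary artery to induce a myocardial infarction (MI). The infarcted rats were left untreated or received an SMC-EPC bi-level cell sheet on the heart, made of human smooth muscle cells and endothelial progenitor cells. Left ventricle was taken 1 week after surgery from 6 hearts of each of the 3 treatments and divided into an infarct zone (anterior wall), a border zone (lateral wall) and a remote zone (septum), giving 54 libraries of polyadenylated RNA. By its label the strain is athymic, so that T cells maturing in a thymus should be lacking in every group. The sham and untreated MI hearts carried no human cells, and reads were aligned to the rat genome without a separate count of human transcripts. The study describes separate hearts, but the label of the replicate number reads technical replicate, and if that is right the p-values measure only technical spread.

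Potassium channels end the cardiac action potential and hold the resting membrane of a cardiomyocyte at a negative voltage. The transient outward current gives the early repolarization that is prominent in the rat ventricle, delayed rectifiers carry later repolarization, and inward rectifiers set the resting voltage. Pacemaker channels pass a depolarizing current on hyperpolarization and are best known from the sinoatrial node and the conduction system. A fall in potassium channel transcripts and currents is a well-known part of the electrical remodeling of the injured ventricle.

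Counts on genes came to between 12699204 and 23397754 per library, and each level is a count divided by the library's total after TMM scaling over all genes, in the unit CPM. Levels are comparable between samples of a gene and were not compared between genes, since they are not per transcript length. The tissue label was checked with 10 cardiomyocyte genes, none of which was at 0 in any library. Their mean log2 CPM had medians of 11.69, 9.60 and 7.65 in the infarct zone of sham, untreated MI and cell sheet-treated hearts, of 11.73, 10.42 and 10.13 in the border zone and of 11.77, 11.11 and 11.67 in the remote zone. In bulk tissue, fewer cardiomyocytes and less channel RNA per cardiomyocyte cannot be told apart. A pair of animals stood apart. Sham replicate 5 had the lowest cardiomyocyte level of its group in every zone (10.41 to 10.96), with a list of 4 T cell genes at 5.75 to 6.35 where the sham medians were below 0 and the highest library of any other animal was at 2.91. These T cell values go against the athymic label for this animal. The border zone library of cell sheet replicate 1 had a cardiomyocyte level of 3.50, and its remote zone library had 10.39, the lowest of that group. Most results that rest on these libraries are given with and without them.

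**Figure D1:**
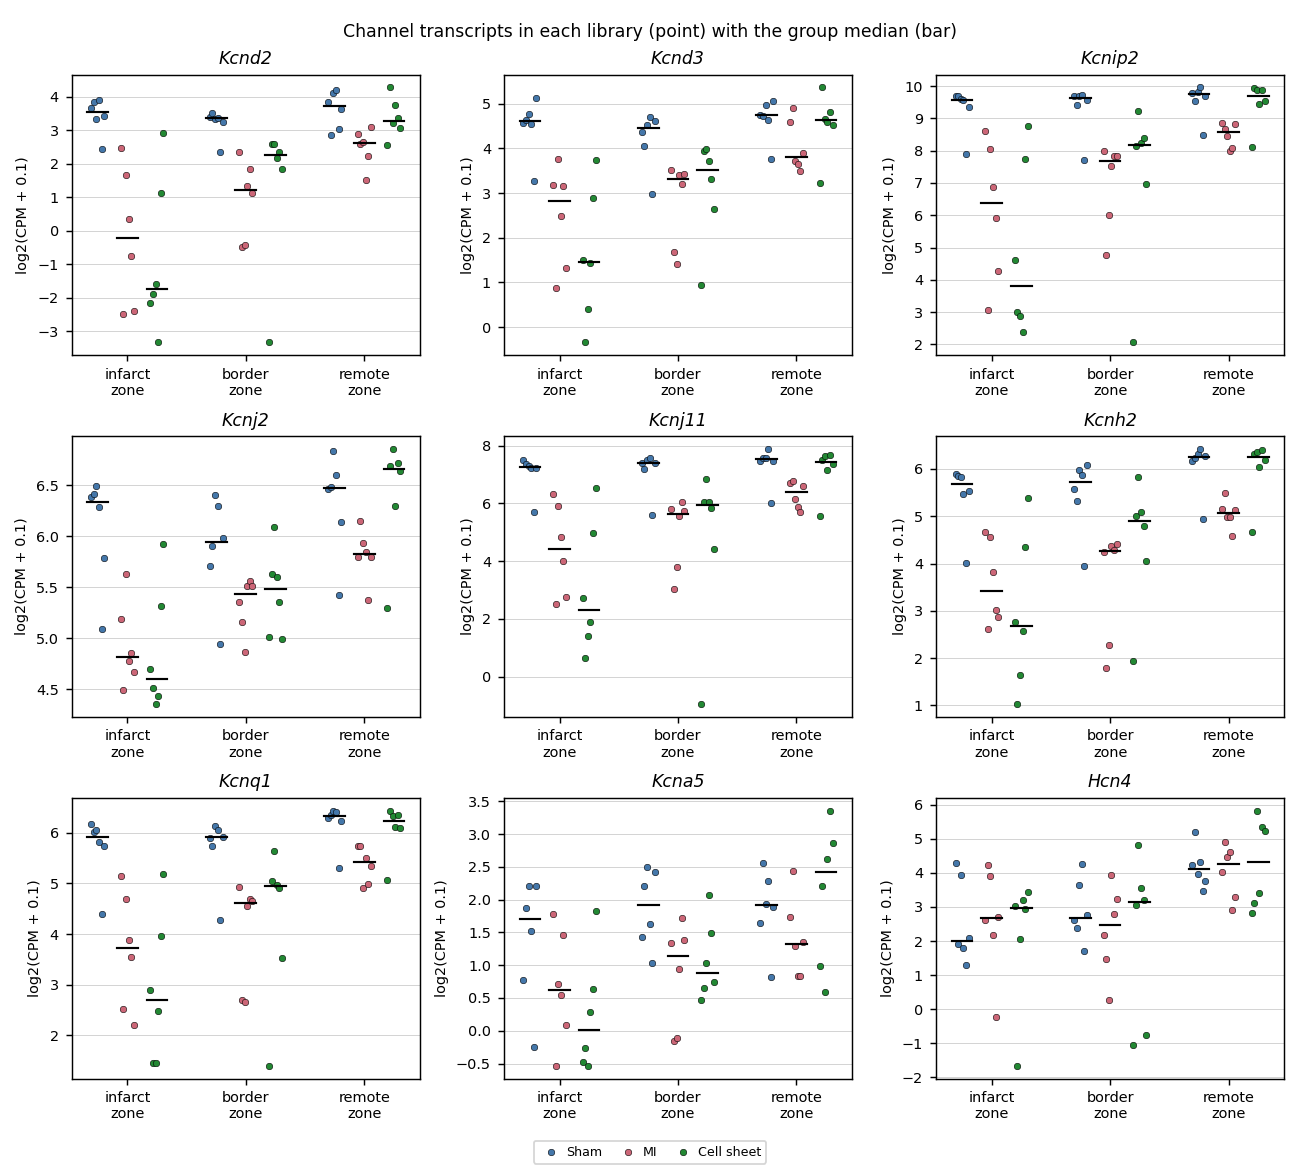
Level of each of the 9 channel transcripts as log2(CPM + 0.1), on 9 panels with their own vertical axes. Each point is 1 library, colours are the 3 treatments, the 3 zones stand side by side and bars are medians of 6. With TMM scaling, most sham points lie above the MI points for Kcnd2 to Kcnq1 in the infarct and border zones, with 1 low sham library in each zone. In the remote zone the same holds for Kcnip2, Kcnj11, Kcnh2 and Kcnq1, while more points of Kcnd2, Kcnd3 and Kcnj2 overlap. The Hcn4 points of the treatments overlap throughout.

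The first question was how infarction without treatment changed these transcripts in each zone. In the infarct zone, 7 of the 9 genes were lower in untreated MI than in sham hearts (edgeR's quasi-likelihood test, adjusted p under 0.05), where 27.2% of the 15758 genes tested were called lower. The same 7 genes, Kcnd2, Kcnd3, Kcnip2, Kcnj2, Kcnj11, Kcnh2 and Kcnq1, were lower in the border zone, where 23.2% of genes were. In the remote zone 5 of them were lower against 14.2% of genes, with Kcnd3 and Kcnj2 not called. No member was called higher in any zone, and Kcna5 and Hcn4 were not called. When libraries were scaled to cardiomyocyte genes instead, which moved the median of all genes to 2.34 in the infarct, 1.90 in the border and 0.39 in the remote zone, several estimates turned positive. These were Kcnd3, Kcnj2, Kcnq1 and Kcna5 in the infarct and border zones, Kcnh2 in the infarct zone, Hcn4 in the border zone, and Kcna5 and Hcn4 in the remote zone. The median log2 fold change over the 9 genes was −1.77 in the infarct, −1.49 in the border and −0.81 in the remote zone, where the median over all genes tested was −0.02, −0.02 and −0.04. All 9 genes overlapped between the 6 sham and 6 MI libraries in all 3 zones, where 5.41%, 4.51% and 4.42% of genes lay wholly lower in MI. Without sham replicate 5, the 7 genes did not overlap in the infarct and border zones, where 22.0% and 20.9% of genes lay wholly lower, and Kcnip2, Kcnj11, Kcnh2 and Kcnq1 did not in the remote zone (15.3% of genes). Kcna5 and Hcn4 still overlapped in every zone, as did Kcnd2, Kcnd3 and Kcnj2 in the remote zone. Without it the test called 7, 8 and 7 members in the infarct, border and remote zones, with 64.8%, 60.8% and 46.5% of genes called in either direction. The eighth gene in the border zone was Kcna5, and Kcnd3 and Kcnj2 were the additions in the remote zone. With all 9 groups in a single fit, 0 members passed in the remote zone and 7 passed in the infarct zone, with no share of all genes given here. Marker lists of other cell types moved with these genes. In the infarct zone, the median levels of sham and MI hearts were 8.18 and 9.53 (mean log2 CPM) for 6 fibroblast genes, 4.00 and 8.50 for 5 myofibroblast genes and 4.69 and 6.27 for 6 mural cell genes. They were 5.05 and 7.05 for 6 macrophage genes and 0.42 and 2.32 for 4 neutrophil genes. In the remote zone, fibroblast genes had medians of 7.90 and 9.06, myofibroblast genes 3.93 and 7.31, and macrophage genes 4.63 and 6.38. The part of these lists in the fall of the channel transcripts was not tested.

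**Figure D2:**
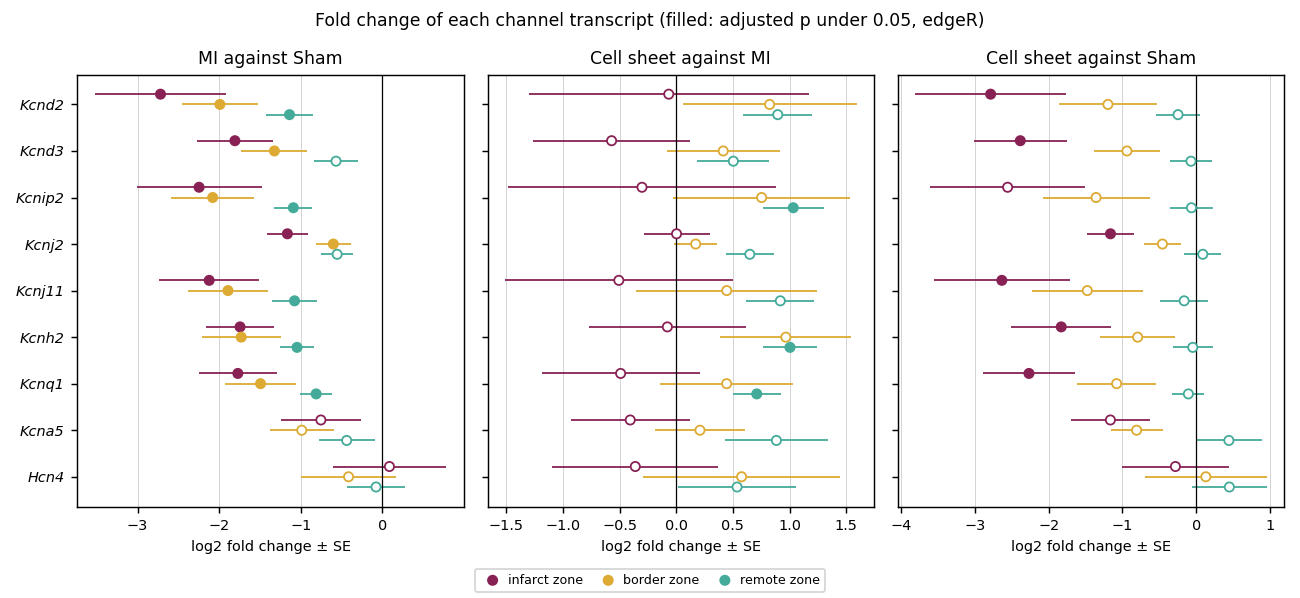
Log2 fold change of each gene for the 3 treatment contrasts, with 1 colour per zone. Points are edgeR estimates from 6 against 6 libraries, lines are ± 1 SE and filled points have an adjusted p under 0.05. With TMM scaling, the MI against Sham infarct zone points of Kcnd2 to Kcnq1 lie between −2.72 and −1.16, and in Cell sheet against MI only the remote zone holds filled points (Kcnip2, Kcnh2 and Kcnq1).

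Kcnd2 and Kcnd3 encode the pore-forming subunits of the fast transient outward current, and Kcnip2 encodes the calcium-binding protein that associates with them and raises their surface expression. Kcnd2 in the infarct zone ran from 5.33 to 14.8 CPM (median 11.7) in sham hearts, from 0.0789 to 5.41 CPM (median 0.836) in untreated MI and from 0 to 7.39 CPM (median 0.204) in cell sheet-treated hearts. Kcnd2 border zone values were 4.96 to 11.3 CPM (median 10.1) in sham, 0.618 to 5.01 CPM (median 2.23) in untreated MI and 0 to 5.92 CPM (median 4.72) in cell sheet-treated hearts. Kcnd2 remote zone values were 7.10 to 18.4 CPM (median 13.2) in sham, 2.76 to 8.44 CPM (median 6.01) in untreated MI and 5.73 to 19.3 CPM (median 9.64) in cell sheet-treated hearts. Every MI library of the infarct and border zones lay below the sham libraries other than replicate 5 for this gene, and 4 of the 6 cell sheet-treated infarct zone libraries were below 1 CPM. A count of 0 occurred in a cell sheet-treated border zone library, where it allows up to 0.114 CPM (3 counts), and in an infarct zone library, where it allows up to 0.140 CPM. These limits cover counting error only. The log2 fold change of MI against sham was −2.72 (SE 0.80, adjusted p = 0.0148) in the infarct, −1.99 (SE 0.47, adjusted p = 0.00724) in the border and −1.14 (SE 0.29, adjusted p = 0.0137) in the remote zone. Without MI replicate 1 the infarct zone value was −3.53.

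Kcnd3 in the infarct zone ran from 9.51 to 34.9 CPM (median 24.3) in sham hearts, from 1.74 to 13.5 CPM (median 7.18) in untreated MI and from 0.691 to 13.3 CPM (median 2.67) in cell sheet-treated hearts. Kcnd3 border zone values were 7.78 to 26.1 CPM (median 21.8) in sham, 2.57 to 11.4 CPM (median 9.85) in untreated MI and 1.82 to 15.8 CPM (median 11.5) in cell sheet-treated hearts. Kcnd3 remote zone values were 13.4 to 33.6 CPM (median 26.6) in sham, 11.3 to 29.9 CPM (median 13.9) in untreated MI and 9.24 to 41.3 CPM (median 24.7) in cell sheet-treated hearts. The median of untreated MI was below that of sham in each zone, and the highest remote zone MI library, at 29.9 CPM, lay above 4 of the 6 sham libraries. Kcnd3 fell by 1.81 on the log2 scale in infarct (adjusted p = 0.00779) and by 1.32 in border zones (adjusted p = 0.0212), while its remote zone value was −0.57 (SE 0.27, adjusted p = 0.137). Kcnip2 in the infarct zone ran from 238 to 832 CPM (median 762) in sham hearts, from 8.33 to 389 CPM (median 88.5) in untreated MI and from 5.15 to 438 CPM (median 16.3) in cell sheet-treated hearts. Kcnip2 border zone values were 209.6 to 841 CPM (median 796) in sham, 27.3 to 254 CPM (median 207) in untreated MI and 4.09 to 594 CPM (median 292) in cell sheet-treated hearts. Kcnip2 remote zone values were 355 to 999 CPM (median 858) in sham, 255 to 467 CPM (median 379.9) in untreated MI and 274 to 979 CPM (median 835) in cell sheet-treated hearts. The 6 MI libraries of the remote zone had Kcnip2 levels below 5 of the 6 sham libraries. Its log2 fold change was −2.25 (SE 0.77, adjusted p = 0.0281) in the infarct, −2.08 (SE 0.51, adjusted p = 0.00847) in the border and −1.09 (SE 0.23, adjusted p = 0.00532) in the remote zone, and the infarct zone value was −2.87 without MI replicate 1.

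The regions around the start sites of these transient outward current genes are shown as a description of sequence. Their part in the lower transcript levels of MI hearts was not tested, and other members were lower too. They were matched by symbol in the RefSeq promoter table (build GRCr8, another build than the mRatBN7.2 assembly of the counts), which holds 5 of the 9 genes, from 250 bases before to 50 after the start. Capitals mark the GC box GGGCGG, or its reverse complement where it lies on the other strand, which 33.1% of the 33469 promoters in the table hold.
Kcnd2, chr4:50742235-50742534 (+ strand): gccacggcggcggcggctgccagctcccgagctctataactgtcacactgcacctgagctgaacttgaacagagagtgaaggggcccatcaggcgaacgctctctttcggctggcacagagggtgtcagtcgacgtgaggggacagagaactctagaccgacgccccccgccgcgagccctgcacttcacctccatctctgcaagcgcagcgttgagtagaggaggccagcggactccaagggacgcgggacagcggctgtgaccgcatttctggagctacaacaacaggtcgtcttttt
Kcnd3, chr2:195626066-195626365 (+ strand): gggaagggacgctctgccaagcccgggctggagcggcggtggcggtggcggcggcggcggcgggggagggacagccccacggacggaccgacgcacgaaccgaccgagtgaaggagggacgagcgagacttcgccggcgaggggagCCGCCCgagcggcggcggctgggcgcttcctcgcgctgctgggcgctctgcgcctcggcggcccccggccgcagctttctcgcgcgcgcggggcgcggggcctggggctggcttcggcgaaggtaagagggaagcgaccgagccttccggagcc
Kcnip2, chr1:254613849-254614148 (- strand): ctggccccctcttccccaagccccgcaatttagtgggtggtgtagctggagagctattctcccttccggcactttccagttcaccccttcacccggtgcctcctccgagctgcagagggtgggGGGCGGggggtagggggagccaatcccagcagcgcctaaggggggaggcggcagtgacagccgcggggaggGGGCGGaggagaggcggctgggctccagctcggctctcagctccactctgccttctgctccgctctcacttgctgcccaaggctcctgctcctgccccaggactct
A GC box was found once in the Kcnd3 window, on the minus strand, and at 2 places in the Kcnip2 window. The Kcnd2 window holds none on either strand. The letters TATAAA, present in 14.2% of promoters on either strand, were in none of these 3 windows. The GC content was 61.7% for Kcnd2, 77.7% for Kcnd3 and 67.7% for Kcnip2, where the median promoter of the table has 51.7%. These matches describe the letters and no binding was measured.

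Among the inward rectifiers, Kcnj2 encodes a strong inward rectifier that stabilizes the resting voltage, and Kcnj11 encodes the pore of the channel that closes on binding ATP. Kcnj2 in the infarct zone ran from 34.1 to 90.1 CPM (median 80.8) in sham hearts, from 22.4 to 49.6 CPM (median 28.1) in untreated MI and from 20.4 to 60.5 CPM (median 24.3) in cell sheet-treated hearts. Kcnj2 border zone values were 30.7 to 84.9 CPM (median 61.4) in sham, 29.1 to 47.0 CPM (median 43.1) in untreated MI and 31.7 to 68.3 CPM (median 44.7) in cell sheet-treated hearts. Kcnj2 remote zone values were 42.7 to 114 CPM (median 88.6) in sham, 41.5 to 70.7 CPM (median 56.5) in untreated MI and 39.2 to 116 CPM (median 101) in cell sheet-treated hearts. Untreated MI hearts had lower Kcnj2 medians than sham hearts in all 3 zones. The lowest sham values of the border and remote zones, 30.7 and 42.7 CPM, were those of sham replicate 5. Without it the sham libraries ran from 52.1 to 84.9 CPM in the border and from 70.4 to 114 CPM in the remote zone. The log2 fold change of Kcnj2 was −1.16 (SE 0.25, adjusted p = 0.00326) in the infarct and −0.60 (SE 0.21, adjusted p = 0.0398) in the border zone, and with libraries scaled to cardiomyocyte genes it turned to 1.16 and 1.37. In the remote zone it was −0.55 (SE 0.19, adjusted p = 0.0510). Kcnj11 in the infarct zone ran from 51.7 to 181 CPM (median 155) in sham hearts, from 5.68 to 79.9 CPM (median 22.3) in untreated MI and from 1.47 to 93.5 CPM (median 5.11) in cell sheet-treated hearts. Kcnj11 border zone values were 48.2 to 189 CPM (median 168) in sham, 8.17 to 66.3 CPM (median 49.8) in untreated MI and 0.417 to 115 CPM (median 61.8) in cell sheet-treated hearts. Kcnj11 remote zone values were 64.0 to 236 CPM (median 185) in sham, 51.6 to 109 CPM (median 84.3) in untreated MI and 46.8 to 206 CPM (median 174) in cell sheet-treated hearts. In 4 of the 6 cell sheet-treated infarct zone libraries Kcnj11 was below 10 CPM, and a border zone library of that group held 11 counts. Kcnj11 had log2 fold changes of −2.12 (SE 0.61, adjusted p = 0.0132) in the infarct, −1.89 (SE 0.49, adjusted p = 0.0106) in the border and −1.08 (SE 0.27, adjusted p = 0.0125) in the remote zone of MI against sham hearts.

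Of the delayed rectifiers, Kcnh2 encodes the pore of the rapid component, Kcnq1 that of the slow component and Kcna5 that of an ultrarapid component. Kcnh2 in the infarct zone ran from 16.0 to 59.5 CPM (median 51.7) in sham hearts, from 6.00 to 25.2 CPM (median 11.1) in untreated MI and from 1.94 to 41.8 CPM (median 6.29) in cell sheet-treated hearts. Kcnh2 border zone values were 15.3 to 67.2 CPM (median 53.3) in sham, 3.36 to 21.3 CPM (median 19.2) in untreated MI and 3.75 to 56.5 CPM (median 29.9) in cell sheet-treated hearts. Kcnh2 remote zone values were 30.6 to 85.5 CPM (median 75.8) in sham, 23.9 to 45.0 CPM (median 33.4) in untreated MI and 25.2 to 84.9 CPM (median 76.7) in cell sheet-treated hearts. All 6 remote zone MI libraries lay below 5 of the 6 sham libraries for Kcnh2. The log2 fold change was −1.74 (SE 0.41, adjusted p = 0.00530) in the infarct, −1.73 (SE 0.48, adjusted p = 0.0147) in the border and −1.05 (SE 0.21, adjusted p = 0.00448) in the remote zone. Kcnq1 in the infarct zone ran from 21.0 to 71.8 CPM (median 60.4) in sham hearts, from 4.49 to 35.4 CPM (median 13.2) in untreated MI and from 2.63 to 36.3 CPM (median 6.46) in cell sheet-treated hearts. Kcnq1 border zone values were 19.3 to 70.2 CPM (median 60.2) in sham, 6.23 to 30.6 CPM (median 24.3) in untreated MI and 2.54 to 49.5 CPM (median 30.6) in cell sheet-treated hearts. Kcnq1 remote zone values were 39.2 to 86.2 CPM (median 80.1) in sham, 30.0 to 53.6 CPM (median 42.7) in untreated MI and 33.3 to 85.7 CPM (median 75.0) in cell sheet-treated hearts. As for Kcnh2, untreated MI had the lowest remote zone median, and the sham and cell sheet-treated values overlapped over most of their range. Kcnq1 had log2 fold changes of −1.77 (SE 0.48, adjusted p = 0.00999) in the infarct, −1.49 (SE 0.43, adjusted p = 0.0167) in the border and −0.81 (SE 0.20, adjusted p = 0.0104) in the remote zone.

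Kcna5 in the infarct zone ran from 0.744 to 4.52 CPM (median 3.17) in sham hearts, from 0.592 to 3.34 CPM (median 1.45) in untreated MI and from 0.590 to 3.46 CPM (median 0.929) in cell sheet-treated hearts. Kcna5 border zone values were 1.96 to 5.52 CPM (median 3.75) in sham, 0.795 to 3.18 CPM (median 2.12) in untreated MI and 1.29 to 4.11 CPM (median 1.76) in cell sheet-treated hearts. Kcna5 remote zone values were 1.66 to 5.81 CPM (median 3.67) in sham, 1.68 to 5.33 CPM (median 2.40) in untreated MI and 1.41 to 10.1 CPM (median 5.29) in cell sheet-treated hearts. These levels rest on 13 to 140 counts per library, and the treatments overlapped in every zone. The log2 fold change of MI against sham was −0.75 (SE 0.49, adjusted p = 0.212), −0.99 (SE 0.39, adjusted p = 0.0583) and −0.44 (SE 0.34, adjusted p = 0.369) in the infarct, border and remote zones. Hcn4 carries the pacemaker current. Hcn4 in the infarct zone ran from 2.35 to 19.4 CPM (median 3.90) in sham hearts, from 0.755 to 18.5 CPM (median 6.24) in untreated MI and from 0.216 to 10.7 CPM (median 7.79) in cell sheet-treated hearts. Hcn4 border zone values were 3.20 to 19.2 CPM (median 6.31) in sham, 1.10 to 15.2 CPM (median 5.60) in untreated MI and 0.379 to 28.4 CPM (median 8.69) in cell sheet-treated hearts. Hcn4 remote zone values were 11.0 to 36.8 CPM (median 17.1) in sham, 7.47 to 30.1 CPM (median 19.1) in untreated MI and 6.97 to 56.3 CPM (median 24.1) in cell sheet-treated hearts. The highest Hcn4 values of each treatment were in the remote zone, and the treatments overlapped in every zone. Its log2 fold change was 0.09 (SE 0.70, adjusted p = 0.927) in the infarct, −0.41 (SE 0.58, adjusted p = 0.581) in the border and −0.08 (SE 0.36, adjusted p = 0.894) in the remote zone. The sign of the infarct value changed when single animals were left out (−0.30 to 0.57), and that of the remote zone value also changed with library size as the only scaling (0.06).

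The order of the zones was read within hearts, as counts of animals with no test. Hcn4 was higher in the remote than in the infarct zone in 5 of 6 sham, 6 of 6 untreated MI and 5 of 6 cell sheet-treated hearts, and the median difference in sham was 1.93 on the log2(CPM + 0.1) scale. Kcnh2 was higher in the remote zone in 6 of 6 hearts of each treatment, by a median of 0.60 in sham, 1.36 in MI and 2.76 in cell sheet-treated hearts. Kcnip2 had median differences of 0.28, 1.64 and 5.20 in the same order. For Kcna5 the remote zone was higher in 4 of 6 sham, 4 of 6 MI and 6 of 6 cell sheet-treated hearts, with median differences of 0.72, 0.43 and 1.90. A list of 4 atrial genes had sham medians of 0.11 (mean log2 CPM) in the remote and 0.21 in the infarct zone. It ranged from −0.93 to 4.74 in the sham remote zone and from −0.26 to 0.65 in the sham infarct zone. The value of 4.74 was that of sham replicate 6, which had 13.5 CPM of Hcn4 there. Sham replicate 2, with the highest sham Hcn4 level of 36.8 CPM, had an atrial level of −0.45. A list of conduction system genes had sham medians of 1.54 and 1.61 in the remote and infarct zones. The part of both lists in the Hcn4 levels was not tested.

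An interaction of treatment and zone, fitted within animals, asked whether MI had unequal effects in the zones. Kcnd2 was lower by a further 2.12 on the log2 scale in the infarct than in the remote zone (interaction −2.12, SE 0.75, adjusted p = 0.0477 from edgeR), and Kcnj2 had an interaction of −0.62 (SE 0.19, adjusted p = 0.0258). These are 2 of the 9 genes, where 15.3% of genes had an interaction called lower. Another 5 members had interactions from −1.93 to −0.82 with adjusted p from 0.0594 to 0.0981. Without MI replicate 3 the count was 7 and without MI replicate 1 it was 6, but it was 0 without sham replicate 1, sham replicate 2 or MI replicate 6. It was 1 without any of the other sham animals, MI replicate 2 or MI replicate 4. Without the animal as a block it was 0. These other counts have no share of all genes beside them and show only how the calls moved. No interaction was fitted relative to cardiomyocyte genes. Between the border and remote zones, 0 members had an adjusted p under 0.05 in edgeR (1 with an unadjusted p under 0.05), where 0% of genes were called.

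The second question was whether cell sheet-treated hearts differed from untreated MI hearts. In the remote zone, 3 of the 9 genes were higher in cell sheet-treated hearts, where 10.3% of the 15374 genes tested were called higher. Kcnip2 rose by 1.03 on the log2 scale (SE 0.27, adjusted p = 0.0241), Kcnh2 by 1.00 (SE 0.24, adjusted p = 0.0174) and Kcnq1 by 0.71 (SE 0.21, adjusted p = 0.0382). Another 3 genes missed the threshold narrowly: Kcnj2 at 0.65 (adjusted p = 0.0502), Kcnj11 at 0.92 (adjusted p = 0.0508) and Kcnd2 at 0.90 (adjusted p = 0.0567). The other members had values of 0.50 for Kcnd3, 0.88 for Kcna5 and 0.54 for Hcn4, with adjusted p of 0.276, 0.182 and 0.480. The median over the 9 genes was 0.88, and the cardiomyocyte list moved with it, at medians of 11.67 in cell sheet-treated and 11.11 in MI hearts. Other lists moved too: cell sheet-treated and MI hearts had medians of 7.93 and 9.06 for fibroblast, 5.16 and 7.31 for myofibroblast, 4.79 and 6.38 for macrophage and −0.03 and 2.45 for neutrophil genes. Mural cell genes went the other way, at 6.23 and 5.52. The ranges of the 6 libraries overlapped for fibroblast (7.65 to 9.52 against 8.08 to 9.43), myofibroblast, macrophage and neutrophil genes but not for mural cell genes (5.93 to 6.92 against 5.03 to 5.73), and the part of these lists in the difference was not tested. Values relative to that list are given after the comparisons with sham. All members overlapped between the groups, where 2.95% of genes lay wholly higher. Without cell sheet replicate 1, Kcnip2, Kcnj2, Kcnj11, Kcnh2 and Kcnq1 did not overlap (13.1% of genes wholly higher), and the test called 7 members, the 5 named and Kcnd2 and Kcnd3, with 41.6% of genes called in either direction.

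This count moved with single animals and with the fit. It was 5 without MI replicate 2. It was 2 when cell sheet replicate 4 or 6 was left out. It was 1 when MI replicate 3, 4 or 5, or 1 of the cell sheet replicates 2, 3 and 5, was left out. DESeq2 called 6 members, and with all 9 groups in a single fit it was 0. Shares of all genes are not set beside the counts of these other fits, which show only how the calls moved. In the infarct zone, 0 of the 9 genes passed in edgeR (0 with an unadjusted p under 0.05, and 0 with DESeq2), where 0% of the 16196 genes tested passed and 1341 had an unadjusted p under 0.05. The log2 differences there ran from −0.57 to 0.00 with standard errors from 0.29 to 1.23. In the border zone, 0 members passed (0 unadjusted, and 0 with DESeq2), where 18.0% of genes were called in either direction. This stayed 0 with any single animal left out, cell sheet replicate 1 included. Without that replicate all members still overlapped, where 5.43% of genes lay wholly higher and 7.38% wholly lower. With all libraries, the log2 differences and standard errors were as follows. The differences ran from 0.17 to 0.97 with standard errors from 0.19 to 0.87. The interaction of this contrast with zone was called for 0 members and 0% of genes between the infarct and remote zones (0 members with an unadjusted p under 0.05), and for 0 members and 0% of genes between the border and remote zones (0 members unadjusted). The difference in the remote zone was thus not shown to be unlike that in the other zones.

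Against sham, which shares its libraries with the first comparison, 6 of the 9 genes were lower in infarct zones after cell sheet treatment, where 29.2% of genes were. They were Kcnd2 (−2.79, adjusted p = 0.0338), Kcnd3 (−2.39, adjusted p = 0.00735), Kcnj2 (−1.16, adjusted p = 0.00924), Kcnj11 (−2.64, adjusted p = 0.0283), Kcnh2 (−1.83, adjusted p = 0.0355) and Kcnq1 (−2.27, adjusted p = 0.00935). Kcnip2 was at −2.56 (SE 1.05, adjusted p = 0.0534), Kcna5 at −1.16 (SE 0.54, adjusted p = 0.0803) and Hcn4 at −0.28 (SE 0.73, adjusted p = 0.753). Without sham replicate 5, 8 members passed (70.0% of genes in either direction), and 6 of them, Kcnd2, Kcnd3, Kcnip2, Kcnj11, Kcnh2 and Kcnq1, lay wholly below sham (23.5% of genes). The number was also 8 when cell sheet replicate 6 was left out, and the values moved with that animal. Without it they were −4.45 for Kcnd2, −3.06 for Kcnd3, −3.73 for Kcnip2, −3.99 for Kcnj11, −2.64 for Kcnh2 and −3.06 for Kcnq1, and −1.45 for Kcnj2. It fell to 3 when cell sheet replicate 1 was, and to 4 for each of the cell sheet replicates 2, 3 and 4 and each other sham animal. In the border zone 0 members passed in edgeR (1 with an unadjusted p under 0.05, and 1 with DESeq2), where 43.6% of genes were called in either direction. Without sham replicate 5, Kcnd3, Kcnj2, Kcnq1 and Kcna5 passed there (61.6% of genes), and Kcnd2, Kcnd3, Kcnip2, Kcnj11 and Kcnq1 lay wholly below sham (20.6% of genes). Leaving out cell sheet replicate 1 gave 2 calls, and leaving out replicate 4 gave 1. Counts with DESeq2 or with animals other than sham replicate 5 left out have no share of all genes beside them. They show only how the calls moved. For remote zones 0 members passed (0 unadjusted, and 0 with DESeq2), where 0.00660% of genes did, and the log2 differences ran from −0.25 to 0.45 with standard errors from 0.22 to 0.51.

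**Figure D3:**
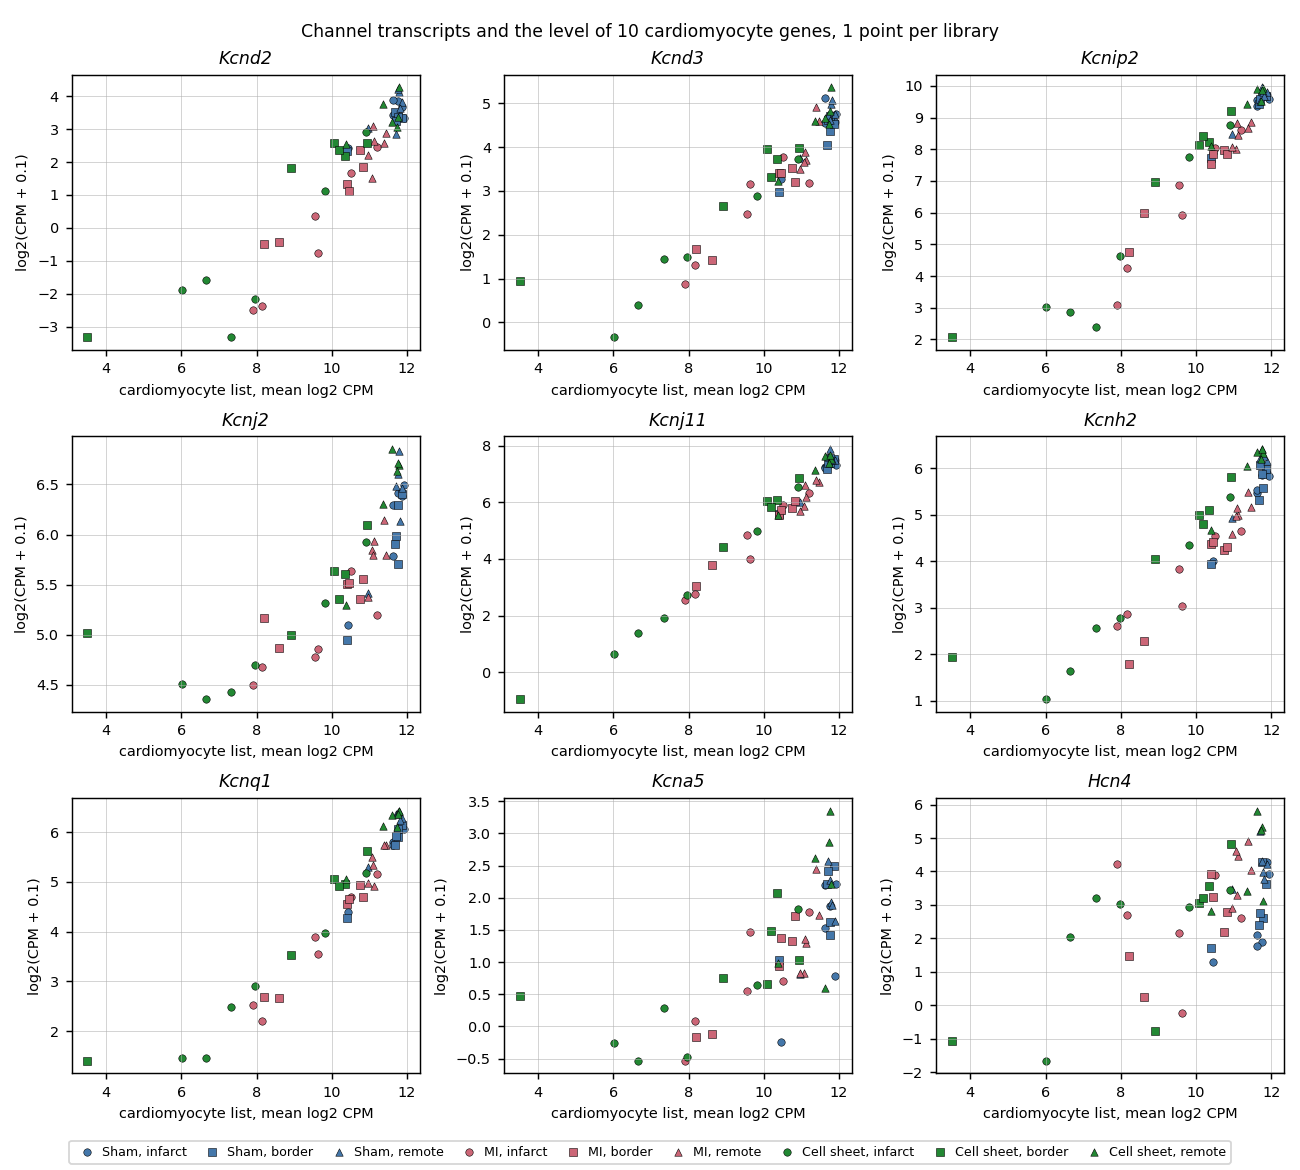
Level of each channel transcript, log2(CPM + 0.1), against the mean log2 CPM of 10 cardiomyocyte genes, with 1 point per library, colours for treatments and symbols for zones. The libraries of Kcnj11 lie close to a line over the whole range from 3.50 to 11.93, the lower end of Kcnj2 is flat and the points of Hcn4 are scattered.

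The members were therefore also compared relative to cardiomyocyte genes, with each library scaled to the mean log2 level of the 10 genes instead of to all genes. Under this scaling the median of all genes moved to 2.34, 1.90 and 0.39 (log2, MI against sham in the infarct, border and remote zones), so a member is read against that shift. Kcnd2 was still lower in the infarct zone, by −1.53 (SE 0.55, adjusted p = 0.0167), where 0.457% of genes were called lower. Kcnj2 at 1.16 (SE 0.47, adjusted p = 0.0298), Kcna5 at 1.29 (SE 0.50, adjusted p = 0.0232) and Hcn4 at 3.07 (SE 0.90, adjusted p = 0.00522) were called higher, where 85.1% of genes were. With all libraries, the Hcn4 value was above the median of all genes and the values of Kcnj2 and Kcna5 were below it. The Hcn4 value rested in part on MI replicate 2, without which it was 1.82 (adjusted p = 0.0336). The other 5 members, all lower under the TMM scaling, ranged from −0.90 to 0.28 and were not called.

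Relative to cardiomyocyte genes in the border zone, 1 member was called, Kcnj2 at 1.37 (SE 0.46, adjusted p = 0.0150), where 80.4% of genes were called higher. The other 8 ranged from −0.64 to 1.13. In the remote zone, Kcnip2 fell by 0.59 (SE 0.15, adjusted p = 0.0147), Kcnj11 fell by 0.57 (SE 0.19, adjusted p = 0.0394) and Kcnh2 fell by 0.54 (SE 0.14, adjusted p = 0.0156), where 1.62% of genes were called lower. With a second list of 9 cardiomyocyte genes these 3 had adjusted p from 0.0615 to 0.115 and the infarct zone value of Kcnd2 had 0.0681, so that none of the lower calls held. Without sham replicate 5 the count in the remote zone was 5, and the share of all genes called in that fit is not given here.

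Cell sheet-treated and untreated MI hearts were compared in the same way. Kcnh2 was higher in the remote zone, by 0.69 (SE 0.15, adjusted p = 0.0482), where 0.735% of genes were called higher. Kcnh2 was not called with the second list (adjusted p = 0.444), nor when any animal other than cell sheet replicate 1 was left out. Without cell sheet replicate 1, 5 members passed. The share of all genes called in that fit is not given here, so the count shows only how the calls moved. No call was made for the infarct zone (0 members and 0% of genes, with 0 members at an unadjusted p under 0.05) or for the border zone (0 members and 0% of genes, with 2 members at an unadjusted p under 0.05, Kcnj2 and Kcna5). The median of all genes had moved to 1.68 and 3.35 in these zones. Cell sheet replicate 1 entered the border zone fit with a cardiomyocyte level of 3.50, where the other libraries of its group ran from 8.92 to 10.94. The standard errors of the members there ran from 1.01 to 1.51. With so wide a spread, the absence of calls cannot decide whether the members differed. A value without that library is not given here.

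**Figure D4:**
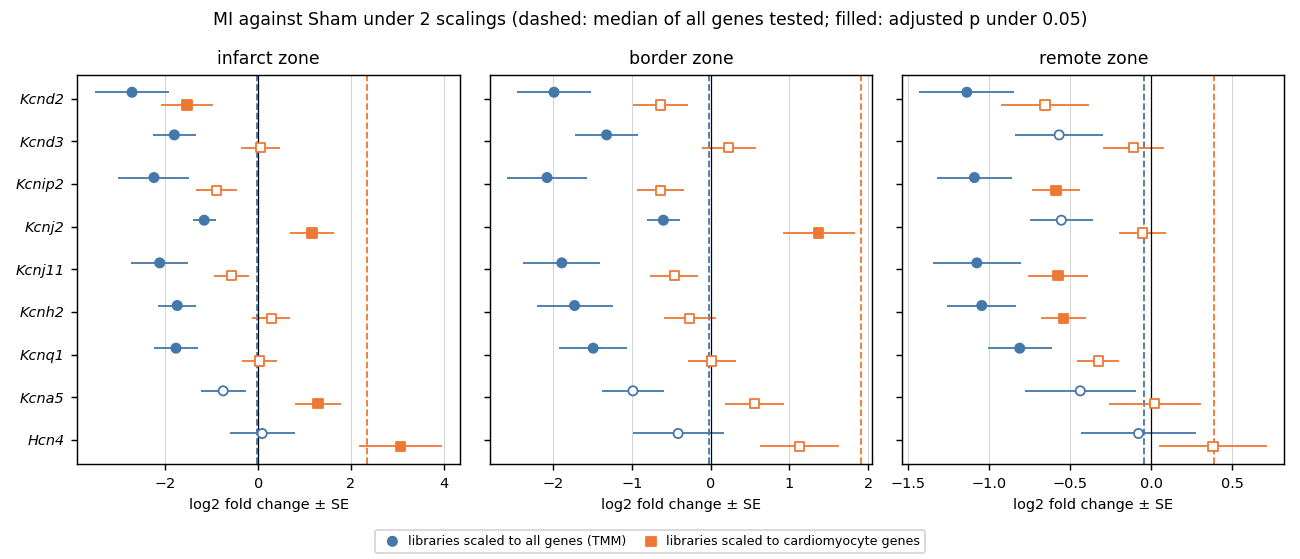
Log2 fold change ± SE of MI against sham for each gene in the 3 zones, with libraries scaled to all genes (circles) and to 10 cardiomyocyte genes (squares). Dashed lines are the medians of all genes tested under each scaling and filled symbols have an adjusted p under 0.05. In the infarct zone Kcnd2 stays below 0 under both (−2.72 and −1.53), and Kcnj2 goes from −1.16 to 1.16.

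Ratios within a library compare a pair of genes without any scaling between libraries. They were taken as log2 of (CPM + 0.1) differences, tested with a 2-sided exact permutation test and adjusted over 27 tests. The smallest p possible in this test is 0.00216 for 6 against 6. A ratio can still differ with the mix of cell types in a library, and the part of that mix was not tested. The ratio of Kcnj2 to Kcnj11 was higher in MI than in sham hearts in the border zone. It ran from −1.70 to −0.65 in sham (mean −1.23 ± 0.35, SD, n = 6) and from −0.49 to 2.12 in MI (mean 0.33 ± 1.05), a difference of 1.57 with p = 0.00216 (exact permutation test, adjusted p = 0.0390) and no overlap. The difference in this ratio was 1.52 for infarct zones (adjusted p = 0.0779 by exact permutation test). For remote zones it was 0.52 (adjusted p = 0.0877 by exact permutation test). Cell sheet-treated hearts differed from sham by 2.81 in infarct and 1.97 in border zones (exact permutation test, adjusted p = 0.0390 for both). The border zone difference was 0.92 without cell sheet replicate 1 (exact permutation test, adjusted p = 0.0779). The border zone library of that animal had a ratio of 5.97 and a cardiomyocyte level of 3.50. The MI call in the border zone was lost without sham replicate 1, 2, 3, 4 or 6, and each cell sheet call without any animal but sham replicate 5 (exact permutation test, adjusted p from 0.0584 to 0.0779). Leaving out an animal raises the smallest p possible, so a lost call alone does not show that a difference rests on that animal. The MI minus sham difference in the border zone ran from 1.21 to 1.73 with single animals left out. The ratio of Kcnd2 to Kcnd3 had MI minus sham differences of −1.60 in the infarct and −0.81 in the border zone, neither past the threshold (exact permutation test, adjusted p = 0.0779 for both). The ratio of Kcnip2 to Kcnd2 had an MI minus sham difference of 0.45 in the infarct zone, which was −0.26 with an offset of 0.5 CPM, with group medians between 5.79 and 6.44 on the log2 scale over all 9 groups (exact permutation test, lowest adjusted p = 0.175 over its 9 comparisons). None of the 9 tests of cell sheet-treated against MI hearts passed the threshold (exact permutation test, lowest adjusted p = 0.333, 0 with an unadjusted p under 0.05).

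**Figure D5:**
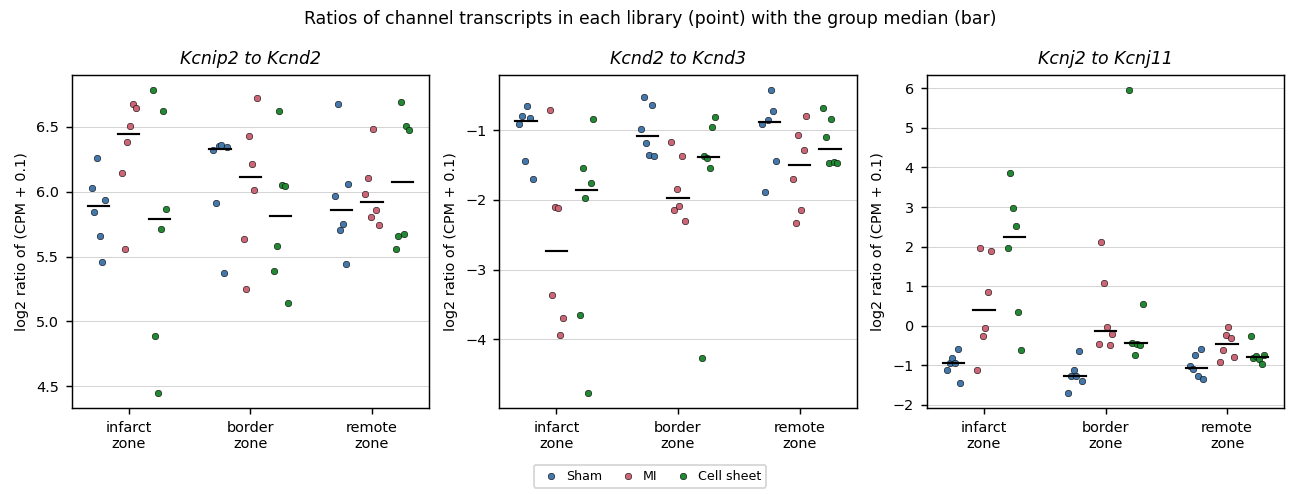
Log2 ratio of (CPM + 0.1) for 3 pairs of channel transcripts, with 1 point per library and bars for the medians of 6. In the border zone the 6 MI points of Kcnj2 to Kcnj11 (from −0.49 to 2.12) lie above the 6 sham points (from −1.70 to −0.65), and 1 cell sheet-treated library lies at 5.97.

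Another 59 genes of channels and their partners, in 7 lists, gave the setting. In MI against sham, 9 were higher and 15 lower of 40 tested in the infarct zone, where 49.9% of genes were called in either direction, 9 and 15 in the border zone (41.7%), and 3 and 15 in the remote zone (25.8%). In cell sheet-treated against MI hearts, 11 were higher and 0 lower of 43 in the remote zone, where 10.3% of all genes were called higher and 6.79% lower. In the border zone 3 of 42 were higher, where 8.47% of all genes were. In the infarct zone 0 passed, where 0% of all genes did. In cell sheet-treated against sham hearts, 13 were higher and 16 lower in the infarct zone, where 57.9% of genes were called. The largest fall in each zone of MI hearts was in Kcna2, a delayed rectifier subunit, which had a median of 37.1 CPM in sham and of 3.67 CPM in MI infarct zones. Its log2 fold change was −2.70 in the infarct, −2.40 in the border and −1.65 in the remote zone, and it had the largest rise of the lists in the remote zone of cell sheet-treated against MI hearts (1.63, SE 0.49, adjusted p = 0.0379). Kcna6 had the largest rise in the infarct and border zones. It held 0 to 3 counts in the sham infarct zone libraries and 13 to 301 in the MI ones, where it reached 0.690 to 13.2 CPM. In the inward rectifier list, 5 of 8 tested genes were lower in the MI infarct zone, where 27.2% of all genes were called lower. Of this list 1 gene was higher there, Kcnj15, an inward rectifier subunit, where 22.7% of all genes were called higher. Kcnj15 rose by 1.99 in the infarct, 2.31 in the border and 0.83 in the remote zone (adjusted p = 0.000878, 0.00346 and 0.0410), and was named after its values were seen. Of the 8 tested genes of the same list, 4 were higher in the remote zone of cell sheet-treated than of MI hearts, where 10.3% of all genes were. These 4 were Abcc9 (1.00), a sulfonylurea receptor that joins Kcnj11 in the ATP-sensitive channel, Kcnj12 (0.94), Kcnj3 (1.00) and Kcnj5 (0.98), named after their values were seen. Abcc9 (1.30) and Akap9 (0.56), an anchoring protein that binds the slow delayed rectifier, were among the genes higher in the border zone, and both were also named after their values were seen. Kcne3, an accessory subunit, had the largest rise in the remote zone of MI against sham hearts (1.50), and Kcna7 the largest fall of cell sheet-treated against sham border zones (−1.77).

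The genes most like each member were found by Pearson's r of log2 CPM over the 54 libraries, among 13283 genes, as a description. Libraries share animals and differ in cardiomyocyte level, so these values are high for many genes. Kcnj11 was closest to Txlnb (0.996), followed by Klhl31 and Frmd5. Kcnq1 was closest to Cpt1b (0.991), the mitochondrial fatty acid transferase of muscle, then Bves. For Kcnh2 the order was Usp13 (0.990), Slc25a23 and Ccdc141, and for Kcnip2 it was Ank1 (0.986), Asb10 and Ldhb. Kcnd3 was nearest to Abcc8 (0.979), a sulfonylurea receptor, then Hhatl and Glb1l2. Kcnd2 was nearest to Rxrg (0.971), a retinoid receptor, then Asb10 and Rpl3l, and Kcnj2 to Dglucy (0.967), with Ppm1l also near. The values were lower for Kcna5, at 0.886 with Klf9 before Fam78b and Afap1l1, and for Hcn4, at 0.811 with Sphkap before Irx5, a cardiac transcription factor, and Epb41l4b. Among the members, Kcnq1 and Kcnj11 had 0.98, Kcnip2 and Kcnd2 0.97, and Hcn4 from 0.42 with Kcna5 to 0.67 with Kcnh2.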

How the data were processed

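RNA of 54 left ventricular libraries (18 rats, 3 zones each) was sequenced as poly(A) libraries. The authors aligned reads with STAR, and the submitters' processing notes name the rat build mRatBN7.2 and DESeq2. They deposited raw read counts per gene. The counting tool and strand setting are not given in the sources used here, so reads of overlapping and antisense genes cannot be told apart. The 5 summary lines of each table (17.0% to 42.8% of its total) were left out. Groups came from the labels.

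The deposited counts were tested with edgeR 4.0.16 (R 4.3.3, limma 3.58.1): TMM factors, filterByExpr and the quasi-likelihood F test on the 2 groups compared, with Benjamini-Hochberg adjustment over all genes tested and a threshold of 0.05. The SE of a log2 fold change is its size divided by the square root of F. The same fit was repeated with libraries scaled to 10 cardiomyocyte genes, and zone interactions were fitted with the animal as a block. Log2 ratios used an offset of 0.1 CPM and a 2-sided exact permutation test. Likeness used genes with a mean log2 CPM of at least 1. The edgeR and DESeq2 fits, the scaling to cardiomyocyte genes and the interaction fit were tested on simulated data. Alternatives were DESeq2 1.42.0, other filters and scalings, a replicate block, all 9 groups in a single fit, a second cardiomyocyte list, an offset of 0.5 CPM and leaving out each animal. Counts of overlap without sham replicate 5 or cell sheet replicate 1 were added after seeing the data. The 9 genes and all lists were chosen with earlier results of these data known. Other channel genes were named by the largest called rise and fall of each comparison among those with a mean log2 CPM of at least 0. A few genes that these rules name are not reported here. No 2 libraries of a group agreed within sampling noise (chi-square per degree of freedom from 7.97 to 539).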

Additional observations from a re-analysis of the deposited data

Results flagged for a closer look

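Samples far from the others of their group were looked for on log2 CPM in 81 groups of 6 by Dixon's test and 24 were found, where chance flags about 1 group in 20. Each of the 24 was the lowest of its group, 15 of them were sham replicate 5 and 8 were cell sheet replicate 1. In the infarct zone of sham hearts, replicate 5 had 9.51 CPM for Kcnd3, 238 CPM for Kcnip2, 51.7 CPM for Kcnj11, 16.0 CPM for Kcnh2 and 21.0 CPM for Kcnq1. In the border zone of sham hearts, replicate 5 had 4.96 CPM for Kcnd2, 209.6 CPM for Kcnip2, 48.2 CPM for Kcnj11, 15.3 CPM for Kcnh2 and 19.3 CPM for Kcnq1. In the remote zone of sham hearts, replicate 5 had 13.4 CPM for Kcnd3, 355 CPM for Kcnip2, 64.0 CPM for Kcnj11, 30.6 CPM for Kcnh2 and 39.2 CPM for Kcnq1. Cell sheet replicate 1 had 0 CPM for Kcnd2, 4.09 CPM for Kcnip2 and 0.417 CPM for Kcnj11 in the border zone. It had 274 CPM for Kcnip2, 39.2 CPM for Kcnj2, 46.8 CPM for Kcnj11, 25.2 CPM for Kcnh2 and 33.3 CPM for Kcnq1 in the remote zone. Its border zone Kcnd2 count of 0 allows up to 0.114 CPM. The remaining library was cell sheet replicate 2 in the infarct zone, with 0.216 CPM for Hcn4 where the other 5 had 4.05 to 10.7 CPM. The values of both animals moved with their cardiomyocyte level, which was 10.45, 10.41 and 10.96 (mean log2 CPM) in the infarct, border and remote zones of sham replicate 5, and 3.50 and 10.39 in the border and remote zones of cell sheet replicate 1. The part of tissue composition in these values was not tested.

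The effect of MI against sham differed between the infarct and remote zones for Kcnd2 (interaction −2.12, SE 0.75, edgeR adjusted p = 0.0477) and for Kcnj2 (interaction −0.62, SE 0.19, edgeR adjusted p = 0.0258). These are 2 of the 9 genes, where 15.3% of all genes had an interaction called lower. Neither was called when sham replicate 1, sham replicate 2 or MI replicate 6 was left out. The cardiomyocyte list had medians of 11.69 in sham and 9.60 in MI infarct zones, and of 11.77 and 11.11 in remote zones. Its part in these interactions was not tested.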

How the results depend on the processing

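Among the counts of members called, 9 values under other settings moved by over 1.5 times and 55 did not. The counts in this section have no share of all genes beside them and describe only how the calls moved. With all 9 groups in a single fit, 0 members passed in the remote zone for MI against sham and 0 for cell sheet against MI. DESeq2 called 6 for cell sheet against MI in the remote zone and 1 for cell sheet against sham in the border zone. The second cardiomyocyte list gave 2 for MI against sham in the border zone, 0 in the remote zone and 0 for cell sheet against MI in the remote zone. Without the animal as a block, the interaction of infarct with remote zone was called for 0 members. Replicate numbers do not mark shared animals between treatments: at most 2 of 6 same-numbered pairs in a comparison correlated above 0.1, and at most 2 of 6 samples correlated best with their own number. With the replicate number as a block, 0 members passed for cell sheet against MI in the remote zone. The cause of these changes was not tested.

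Signs turned for the Kcnip2 to Kcnd2 ratio of MI against sham in the infarct zone (−0.26 with an offset of 0.5 CPM) and, with library size as the only scaling, for Hcn4 in MI against sham in the remote zone (0.0605) and in cell sheet against sham in the infarct zone (0.0293).

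With single animals left out, the number of members called ran from 1 to 7 for cell sheet against MI in the remote zone, from 3 to 8 and from 0 to 4 for cell sheet against sham in the infarct and border zones, and from 0 to 7 for the interaction of infarct with remote zone. Relative to cardiomyocyte genes it ran from 2 to 5, 1 to 2 and 2 to 5 for MI against sham in the infarct, border and remote zones, and from 0 to 1, 0 to 2 and 0 to 5 for cell sheet against MI. For MI against sham with TMM scaling it stayed between 6 and 7, 6 and 8, and 5 and 7. The Kcnj2 to Kcnj11 ratio ran from 1.23 to 1.85, 1.21 to 1.73, 2.41 to 3.31 and 0.92 to 2.26 for MI against sham in the infarct and border zones and cell sheet against sham in the infarct and border zones, and from −0.65 to 0.76 for cell sheet against MI in the border zone. The Kcnd2 to Kcnd3 ratio ran from −1.99 to −1.34 and −0.94 to −0.72 for MI against sham in the infarct and border zones, and from −0.0835 to 0.70 and −0.0868 to 0.60 for cell sheet against MI in the same zones. The Kcnip2 to Kcnd2 ratio ran from −0.21 to 0.0924 and −0.0360 to 0.21 for MI against sham in the border and remote zones, from −0.35 to 0.11 for cell sheet against sham in the infarct zone and from −0.0217 to 0.21 for cell sheet against MI in the remote zone. Hcn4 ran from −0.30 to 0.57 and −0.28 to 0.21 for MI against sham in the infarct and remote zones and from −0.48 to 0.20 for cell sheet against sham in the infarct zone.

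Counts limit Kcna5 (13 to 140 per library) and Kcnd2 in infarct zone libraries (down to 0).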
